A study of Mus musculus with 8 samples.

Results

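Interferon-stimulated genes were examined in 8 libraries of polyadenylated RNA from primary calvarial cells of mice. The set was given as a list of 41 gene symbols, drawn up with earlier results of these data known although no measured value enters the rule, and all 41 were found among the 25239 symbols of the count table. All 41 also passed the filter on low counts, which left 12837 genes to test.

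The study compared cells labelled as osteoblasts, the cells that form bone, isolated from the skull caps of mice. The 4 control libraries carry the genotype label WT and the 4 knockout libraries the label KO(OSX-SphK2), read here as a deletion of the sphingosine kinase gene Sphk2 under Osx, a transcription factor gene of the osteoblast lineage. The series' design text calls the controls littermates. The labels do not state age, sex, strain, the Cre line, the culture time or how many animals were pooled, and a p-value here reflects only how far single libraries vary, which may be technical. Both groups carry the numbers 1 to 4, and total counts ran from 14347495 to 19065421 per library. Levels are given as CPM, a gene's count scaled to the adjusted total of its library, without division by gene length.

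Interferons are signalling proteins released when cells sense foreign or misplaced nucleic acid. They bind receptors that activate Janus kinases, which phosphorylate transcription factors such as STAT2. STAT2 acts with IRF9 in a complex that binds interferon-stimulated response elements, while gamma-activated sites are a second kind of element in such promoters. The genes switched on in this way include sensors of viral RNA, enzymes that degrade or modify RNA and nucleotides, and large GTPases that act on intracellular pathogens. Macrophages hold a constant low level of many of these transcripts.

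Promoter stretches are shown for the members on which the genotype result turns, so that the response elements can be seen beside the levels given further on. They come from RefSeq windows on GRCm38.p6 that run from 250 bases before to 50 bases after a transcription start, and 31 of the 41 members had at least 1 window. The letters GAAANNGAA, the core shared by interferon response elements, and their reverse complement TTCNNTTTC were searched, as were the letters TTCNNNGAA of a gamma-activated site, which read the same on both strands. At least 1 window held the first motif in 19 of 31 members (61.3%), against 2638 of 27025 genes of the table (9.76%). The second motif was found in 10 of 31 members (32.3%), against 9.55% of all genes. Over the members' windows, matches to both overlapped in 1 case. A match of letters is a description and not a measured binding site.

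The 4 members of the guanylate-binding protein family lie in 1 block on the plus strand of chromosome 3, between 142493978 and 142638008, a span of 144 kb on GRCm38. Each stretch below is 100 bases long, reads 5′ to 3′ along the gene, and has whole matches to either motif in capitals. The first of 2 response element matches in the Gbp3 stretch begins 44 bases before the annotated start. Those of Gbp7 and Gbp2 begin 52 and 58 bases before theirs. A gamma-activated site match in the Gbp5 window is not within the stretch shown.
Gbp5, chr3:142496724-142496823, plus strand: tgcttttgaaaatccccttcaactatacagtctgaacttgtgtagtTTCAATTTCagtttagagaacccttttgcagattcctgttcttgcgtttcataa
Gbp7, chr3:142530238-142530337, plus strand: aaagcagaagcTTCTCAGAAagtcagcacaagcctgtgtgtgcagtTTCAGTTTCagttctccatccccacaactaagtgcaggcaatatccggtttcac
Gbp3, chr3:142559954-142560053, plus strand: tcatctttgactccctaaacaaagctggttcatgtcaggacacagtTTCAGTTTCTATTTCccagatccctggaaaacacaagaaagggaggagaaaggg
Gbp2, chr3:142620559-142620658, plus strand: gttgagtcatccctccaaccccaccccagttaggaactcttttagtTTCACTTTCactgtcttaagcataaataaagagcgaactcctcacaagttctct

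The Ifit genes form a second block, on the plus strand of chromosome 19 between 34550694 and 34650009. Rsad2 and Cmpk2 are neighbours on chromosome 12, transcribed away from each other within 37.1 kb. Ifit1 and Ifit3 each held 3 matches to the response element letters and Rsad2 held 1, while the windows of Ifit2, Cmpk2 and Irf7 held 0. For those the 100 bases before the start are shown, without capitals where no match fell. Of the 2 windows of Ifit2, 1 held a gamma-activated site match, which is not within the stretch shown.
Ifit2, chr19:34550594-34550693, plus strand: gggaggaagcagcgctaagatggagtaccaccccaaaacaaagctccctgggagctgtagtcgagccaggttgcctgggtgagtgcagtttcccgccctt
Ifit3, chr19:34583328-34583427, plus strand: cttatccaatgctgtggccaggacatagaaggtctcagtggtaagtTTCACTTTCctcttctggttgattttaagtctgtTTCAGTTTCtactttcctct
Ifit1, chr19:34640734-34640833, plus strand: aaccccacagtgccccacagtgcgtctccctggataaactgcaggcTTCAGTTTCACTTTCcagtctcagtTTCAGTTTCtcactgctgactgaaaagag
Rsad2, chr12:26456518-26456617, minus strand: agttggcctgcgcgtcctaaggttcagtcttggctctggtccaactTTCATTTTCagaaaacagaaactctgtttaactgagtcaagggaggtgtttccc
Cmpk2, chr12:26469115-26469214, plus strand: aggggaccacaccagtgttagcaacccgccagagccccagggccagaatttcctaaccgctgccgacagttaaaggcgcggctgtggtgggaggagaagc
Irf7, chr7:141266425-141266524, minus strand: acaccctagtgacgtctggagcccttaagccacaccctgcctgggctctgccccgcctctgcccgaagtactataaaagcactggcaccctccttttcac
Among the 10 members that passed the threshold in libraries 1 to 3, described further on, the response element letters were found in 6 of the 8 higher members that had a window and in 0 of 1 lower member. They were found in 13 of the 22 other members with a window.

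Before the members, the libraries themselves were compared. Sphk2 averaged 89.1 ± 30.8 CPM (SD, n = 4) among controls. Among libraries labelled knockout its mean was 86.3 ± 29.9 CPM (SD, n = 4), so its whole-gene count did not check the genotype label, and directions below are those of the labels. The libraries numbered 4 stood apart in both genotypes on the first principal component, which carried 73.7% of the variance. The 5 osteoclast markers (Acp5, Ctsk, Oscar, Dcstamp, Ocstamp) summed to 4498 CPM in control 4 and 2506 CPM in knockout 4, against 33.4 to 67.8 CPM elsewhere. The 6 macrophage markers (Csf1r, Adgre1, Cd68, Lyz2, Mrc1, C1qa) summed to 24632 to 43416 CPM, above the 2090 to 13689 CPM of the 7 osteoblast markers in each library, although the label names osteoblasts. Of the macrophage markers, Mrc1 fell to 135 CPM in control 4 and 327 CPM in knockout 4, against 1058 to 1588 CPM elsewhere. C1qa was also lowest in number 4, Csf1r and Adgre1 were highest there, and Cd68 and Lyz2 kept to neither side. Neutrophil markers summed to at most 3.42 CPM, T cell markers to at most 0.146 CPM and B cell markers to at most 0.28 CPM. The 6 plasmacytoid dendritic cell markers summed to 325 to 382 CPM in numbers 1 to 3 and to 555 and 558 CPM in control 4 and knockout 4. Nearly all of that sum came from Tcf4 (82.4 to 177 CPM), Irf8 (123 to 227 CPM) and Bst2, itself a member, while Ccr9 and Ptprcap had at most 0.437 and 0.524 CPM and Siglech had 0 counts in each of the 8 libraries. In such bulk libraries fewer cells of a type and less RNA per cell cannot be told apart.

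No member passed the threshold between genotypes with all 8 libraries in the edgeR fit that left the library numbers out of the model. With the numbers in the model 1 member passed, Irf7, as given further on. With edgeR's quasi-likelihood test and Benjamini-Hochberg adjustment over all genes, 0 of 41 members were higher and 0 lower, against 0% and 0% of all 12837 genes tested. At an unadjusted p under 0.05 there were 4 members, Gbp3, Gbp5, Gbp7 and Ifit2, which is 9.76% of the members against 4.92% of all genes. DESeq2 called 1 member, Gbp5, as higher (adjusted p = 0.024), against 0.958% of all genes, and 0 as lower, against 0.374%, while limma-voom called 0 members. For Irf7 and Ifi27l2a DESeq2 gave no adjusted p. The median log2 fold change of the members was 0.02, against −0.02 over all genes, with 22 positive and 19 negative.

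That median covers opposite values in different pairs. In the same-numbered pairs 1, 2 and 3 the members' median difference in log2 CPM was 0.06, 0.06 and 0.05, and in pair 4 it was −0.29, against 0.01 over all genes in pair 4. In pairs 1, 2 and 3 the knockout library was higher for 25, 26 and 26 members, against 49.7%, 49.5% and 48.2% of all genes. In pair 4 it was lower for 31 of 41 members (75.6%), where 47.6% of all genes were lower. Without control 4 the members' median log2 fold change became 0.28 with 34 of 41 positive, against 0.02 over all genes. Without knockout 4 it became −0.09 with 15 positive, against −0.03 over all genes. Each of these fits keeps number 4 in a single genotype, so number 4 and genotype cannot be told apart there. With only the libraries numbered 1 to 3, which were set apart because of earlier results of these data, the quasi-likelihood test called 9 members higher, against 7.78% of all 12919 genes tested, and 1 lower, against 6.29%. The 9 are Gbp3, Gbp5, Gbp7, Ifit1, Ifit2, Ifit3, Rsad2, Cmpk2 and Ifi27l2a, and the other is Irf7. With the number also fitted as a block, which sets libraries of the same number against each other, 12 members were called higher in numbers 1 to 3 (29.3%), against 12.3% of all genes, and 2 lower (4.88%), against 11.9%. Of 41 members, 16 (39.0%) were higher in knockouts 1 to 3 with no overlap with controls 1 to 3, against 18.2% of all genes, and 2 were lower (4.88%), against 16.5%. The order was higher in pairs 1 to 3 and lower in pair 4 for 14 members (34.1%), against 11.9% of all genes, and the reverse for 1 (Ifih1, 2.44%), against 14.6%. These 14 were the 4 Ifit genes, Ifi27l2a, Oas3, Oasl1, Mx1, Rsad2, Cmpk2, Ddx58, Dhx58, Zbp1 and Herc6. The knockout was higher in 4 of 4 pairs for 6 members (Gbp3, Gbp5, Gbp7, Eif2ak2, Trim30a, Samhd1; 14.6%), against 15.4% of all genes, and lower in 4 of 4 for 6 (Irf7, Oasl2, Oas2, Stat2, Ifi27, Bst2; 14.6%), against 13.4%, both near the background.

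**Figure D1:**
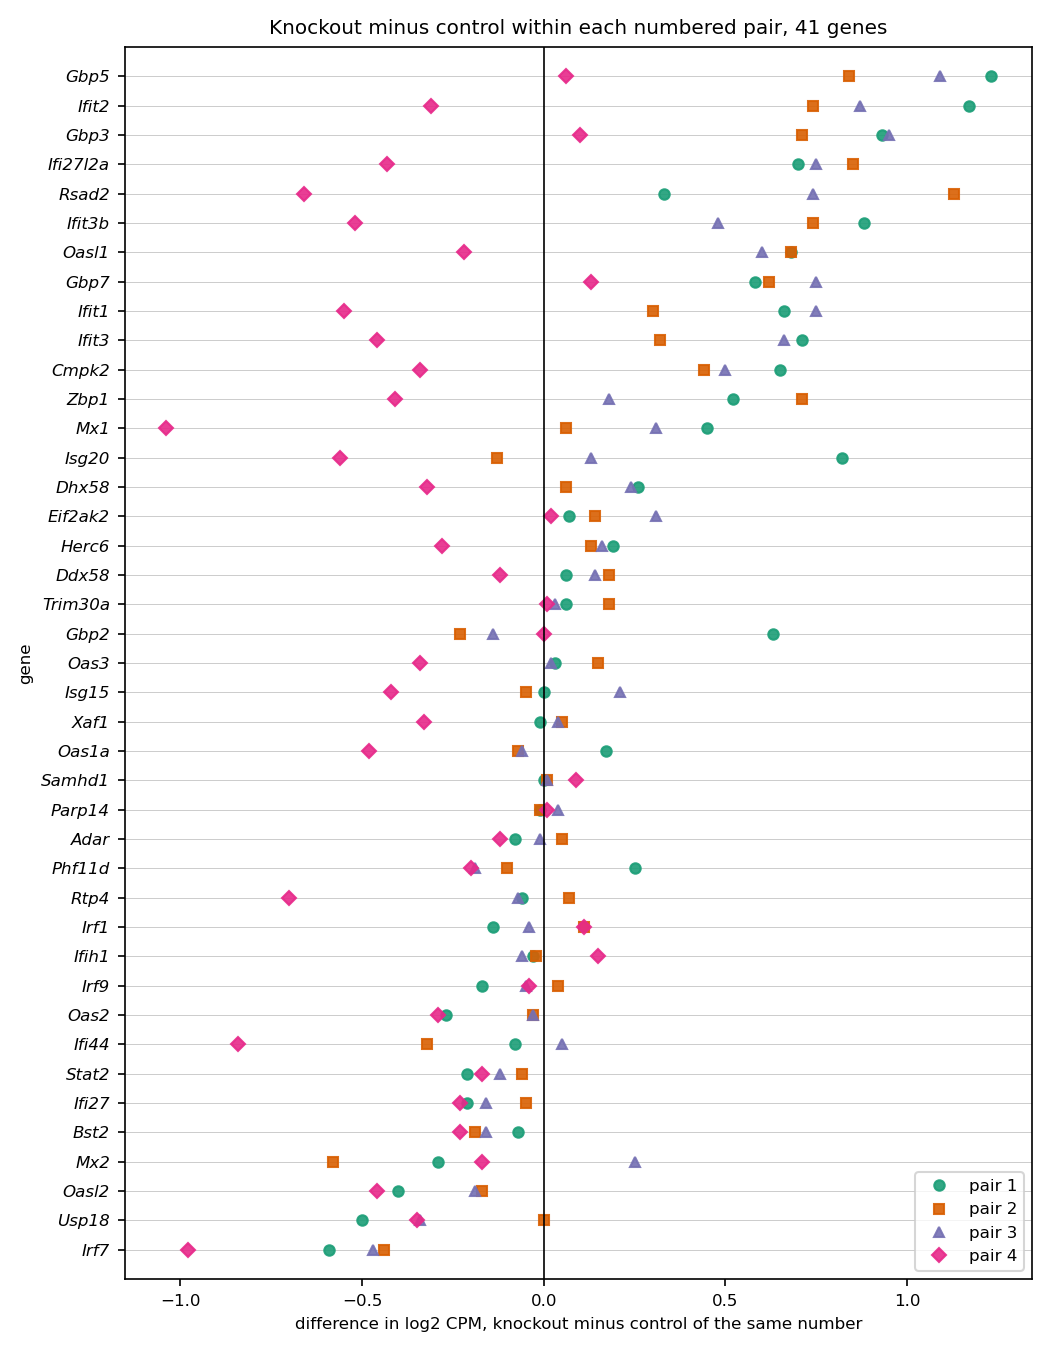
Each row is 1 of the 41 genes and each symbol the difference in log2 CPM between the knockout and the control library of the same number (x axis), with genes ordered by the mean of pairs 1 to 3. Pairs 1 to 3 lie on the right for Gbp3, Gbp5, Gbp7 and the 4 Ifit genes in the upper rows and on the left for Irf7 at the bottom, while 31 of the 41 symbols of pair 4 lie below 0.

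Guanylate-binding proteins are large GTPases that coat vacuoles of intracellular pathogens, and 3 of the 4 members of this family gave the clearest difference. Gbp5, which also promotes inflammasome assembly, stood at 5.87, 6.63, 6.0 and 7.48 CPM in controls 1 to 4 and at 14, 12, 12.9 and 7.79 CPM in knockouts 1 to 4. The groups did not overlap, although knockout 4 exceeded control 4 by little. Its log2 fold change was 0.85 (SE 0.21, edgeR adjusted p = 0.51), and 1.07 (SE 0.13) in numbers 1 to 3 (adjusted p = 0.00105). With all 8 libraries and the number as a block it was 0.83 (SE 0.21, edgeR adjusted p = 0.09). Gbp3 stood at 11.6, 12, 10.7 and 17.6 CPM in controls 1 to 4 and at 22.2, 19.6, 20.8 and 18.9 CPM in knockouts 1 to 4, again without overlap. Its log2 fold change was 0.65 (SE 0.18, edgeR adjusted p = 0.572), and 0.87 (SE 0.10) in numbers 1 to 3 (adjusted p = 8.98e-04). With all 8 libraries and the block it was 0.68 (SE 0.16, edgeR adjusted p = 0.0795). Gbp3 and Gbp5 were the 2 of 41 members (4.88%) higher without overlap in all 8 libraries, against 2.32% of all genes. None was lower without overlap, against 1.27%.

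Gbp7 stood at 35.0, 33.6, 26.7 and 28.2 CPM in controls 1 to 4 and at 52.3, 51.8, 45.0 and 31.0 CPM in knockouts 1 to 4, so that only knockout 4 fell within the range of the controls. Its log2 fold change was 0.54 (SE 0.19) over all libraries (edgeR adjusted p = 0.803) and 0.65 (SE 0.11) in numbers 1 to 3 (adjusted p = 0.00655). Over all libraries with the block it was 0.53 (SE 0.11, edgeR adjusted p = 0.0601). Gbp2, the neighbour at the far end of the block, stood at 11.6, 19.2, 18.3 and 26.1 CPM in controls 1 to 4 and at 18.1, 16.4, 16.7 and 26.1 CPM in knockouts 1 to 4. Its values overlapped fully, and its log2 fold change in numbers 1 to 3 was 0.06 (SE 0.18). The members of this family resemble each other in sequence, and no source used here states how reads with several alignments were treated, so their split between neighbours is uncertain. The other large GTPases, the antiviral Mx1 and Mx2, stood at or under 15.4 CPM. Mx1 had 3.70, 4.22 and 3.96 CPM among controls 1 to 3 and 5.09, 4.40 and 4.95 CPM among knockouts 1 to 3, but 15.4 CPM in control 4 against 7.43 CPM in knockout 4.

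**Figure D2:**
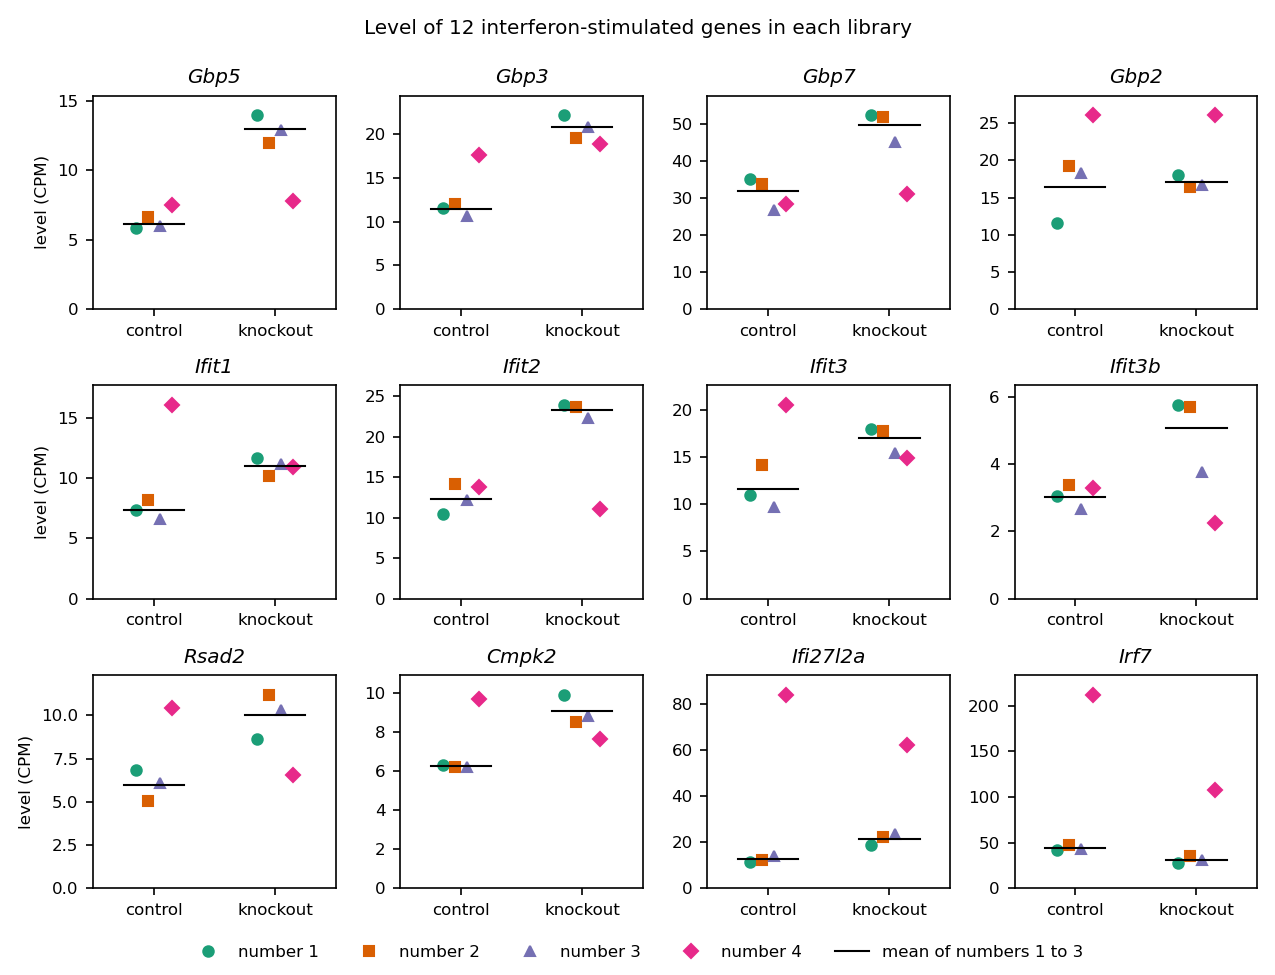
Level in CPM (y axis, from 0) of 12 genes in each library, with controls on the left and knockouts on the right of each panel, symbols for the library number and a line for the mean of numbers 1 to 3. For Gbp5 the knockouts numbered 1 to 3 sit between 12 and 14 CPM, above controls at 5.87 to 7.48 CPM, and for Irf7 and Ifi27l2a the libraries numbered 4 lie far above the rest.

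The Ifit genes encode tetratricopeptide repeat proteins that bind foreign RNA and limit its translation, and their 4 members were higher in each of pairs 1 to 3 and lower in pair 4. Ifit2 stood at 10.5, 14.1, 12.2 and 13.8 CPM in controls 1 to 4 and at 23.9, 23.6, 22.3 and 11.1 CPM in knockouts 1 to 4. Knockouts 1 to 3 lay above each control and knockout 4 below the median of the controls. The log2 fold change of Ifit2 was 0.93 (SE 0.12) in numbers 1 to 3 (edgeR adjusted p = 0.00149), against 0.68 (SE 0.26) over all 8 libraries (adjusted p = 0.897). Over all 8 libraries with the block it was 0.64 (SE 0.25, edgeR adjusted p = 0.221). Ifit1 stood at 7.36, 8.21, 6.64 and 16.1 CPM in controls 1 to 4 and at 11.7, 10.2, 11.2 and 10.9 CPM in knockouts 1 to 4. Its knockout values were nearly level across the 4 libraries, while control 4 stood at 2.17 times the mean of the other controls.

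Ifit3 stood at 11, 14.1, 9.72 and 20.5 CPM in controls 1 to 4 and at 18.0, 17.7, 15.4 and 14.9 CPM in knockouts 1 to 4. In numbers 1 to 3 Ifit1 rose by 0.58 (SE 0.14, edgeR adjusted p = 0.0243) and Ifit3 by 0.56 (SE 0.15, adjusted p = 0.0406) on the log2 scale. Ifit3b, a close copy of Ifit3 with which it may share reads, stood at 3.07, 3.37, 2.68 and 3.29 CPM in controls 1 to 4 and at 5.77, 5.71, 3.78 and 2.26 CPM in knockouts 1 to 4. It did not pass in numbers 1 to 3 without the block (adjusted p = 0.0627) and passed with the number as a block (log2 fold change 0.73, SE 0.20, edgeR adjusted p = 0.0266).

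Rsad2 encodes viperin, which makes a chain-terminating nucleotide, and Cmpk2 next to it encodes a nucleotide kinase that supplies its substrate. Rsad2 stood at 6.83, 5.06, 6.11 and 10.4 CPM in controls 1 to 4 and at 8.62, 11.2, 10.3 and 6.56 CPM in knockouts 1 to 4. Cmpk2 stood at 6.30, 6.24, 6.23 and 9.72 CPM in controls 1 to 4 and at 9.93, 8.53, 8.84 and 7.65 CPM in knockouts 1 to 4. Both genes showed the same exchange of order, with the knockout above the control in numbers 1 to 3 and below it in number 4. In numbers 1 to 3 the log2 fold change was 0.75 (SE 0.17) for Rsad2 (edgeR adjusted p = 0.0187) and 0.54 (SE 0.13) for Cmpk2 (adjusted p = 0.0286). Samhd1, which breaks down deoxynucleotides, stood at 293, 293, 303 and 413 CPM in controls 1 to 4 and at 294, 295, 306 and 439 CPM in knockouts 1 to 4. Adar, which edits double-stranded RNA, Parp14, an ADP-ribosyltransferase, and Isg20, an RNA exonuclease, had log2 fold changes of −0.04, 0.01 and 0.03 with SEs of 0.10, 0.10 and 0.27. Exons of Adar overlap those of Chrnb2 on the opposite strand, and no source used here states whether counting used the strand.

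Of the 4 transcription factors, Irf7 was the one that passed in any fit described here, and in numbers 1 to 3 its direction was opposite to that of Gbp3, Gbp5, Gbp7 and the Ifit genes. IRF7 is the factor that amplifies type I interferon production and is itself induced by interferon. It stood at 41.5, 47.7, 42.8 and 212 CPM in controls 1 to 4 and at 27.5, 35.0, 30.8 and 108 CPM in knockouts 1 to 4. The knockout was lower in 4 of 4 pairs, while the libraries numbered 4 stood at 4.83 and 3.46 times the mean of the rest of their group. With all 8 libraries the log2 fold change was −0.78 (SE 0.70, edgeR adjusted p = 1), and with the number as a block it fell by 0.63 (SE 0.10, adjusted p = 0.0412). It was then the 1 member called lower, 2.44% of the members against 1.18% of all genes, with 0 members called higher against 1.31%. When both libraries numbered 1, 2 or 3 were dropped the log2 fold change was −0.64, −0.68 and −0.68, but it no longer passed (edgeR adjusted p = 0.205, 0.253 and 0.337), in fits that called 0 genes of the whole table. In numbers 1 to 3 without the block the log2 fold change was −0.50 (SE 0.10, edgeR adjusted p = 0.0135).

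STAT2 and IRF9, which belong to the complex that binds response elements, passed in no fit described here. Stat2 stood at 89.4, 81.1, 91.0 and 116 CPM in controls 1 to 4 and at 77.2, 78.0, 83.4 and 103 CPM in knockouts 1 to 4, lower in 4 of 4 pairs with overlapping groups. Its log2 fold change was −0.14 (SE 0.15, edgeR adjusted p = 1), and with the block it was −0.14 (SE 0.05, adjusted p = 0.204). Irf9 and Irf1, a factor induced mainly by interferon gamma, had log2 fold changes of −0.06 (SE 0.11) and 0.02 (SE 0.25).

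The 2-5A synthetases make the oligoadenylate that activates an RNA-degrading enzyme, and the members of this family did not move as one. Oasl2, a relative that modulates RNA sensing, stood at 67.0, 68.7, 66.9 and 128 CPM in controls 1 to 4 and at 50.9, 61.3, 58.4 and 93.0 CPM in knockouts 1 to 4. The knockout was lower in 4 of 4 pairs. It did not pass with all 8 libraries or in numbers 1 to 3 alone (log2 fold change −0.24, SE 0.08, edgeR adjusted p = 0.0638), and passed there with the block (−0.25, SE 0.06, adjusted p = 0.0159). Over all 8 libraries with the block the log2 fold change of Oasl2 was −0.31 (SE 0.07, edgeR adjusted p = 0.0738). Its neighbour Oasl1, a translation inhibitor of Irf7, had 2.7, 2.64 and 2.45 CPM among controls 1 to 3, 4.40, 4.29 and 3.78 CPM among knockouts 1 to 3, and 8.67 and 7.43 CPM in control 4 and knockout 4. With the block in numbers 1 to 3 it rose (0.68, SE 0.22, adjusted p = 0.0476). Oas1a stood at 33.2, 37.3, 37.2 and 98.2 CPM in controls 1 to 4 and at 37.5, 35.5, 35.8 and 70.6 CPM in knockouts 1 to 4. The log2 fold changes of Oas1a, Oas2 and Oas3 in numbers 1 to 3 were 0.02, −0.11 and 0.07, with SEs of 0.08, 0.07 and 0.07.

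Of the sensors, Ifih1 and Ddx58, which encode the RNA helicases MDA5 and RIG-I, and their regulator Dhx58 had log2 fold changes of 0.02, 0.05 and −0.03 over all 8 libraries. In numbers 1 to 3 these were −0.04, 0.13 and 0.19, with SEs of 0.11, 0.07 and 0.09. Dhx58 was higher there without overlap but did not pass (edgeR adjusted p = 0.183). Zbp1, a sensor of left-handed nucleic acid that can start cell death, had 9.58, 7.64 and 10.0 CPM among controls 1 to 3, 13.8, 12.6 and 11.4 CPM among knockouts 1 to 3, and 37.2 and 28.0 CPM in control 4 and knockout 4. It passed in numbers 1 to 3 with the block (0.48, SE 0.13, edgeR adjusted p = 0.0253). Eif2ak2, the RNA-activated kinase PKR, stood at 70, 70.4, 58.1 and 49.2 CPM in controls 1 to 4 and at 73.4, 77.7, 72.0 and 49.7 CPM in knockouts 1 to 4. Over all 8 libraries its groups overlapped, and it is 1 of the members whose level was lower in the libraries numbered 4. In numbers 1 to 3 it was higher without overlap but did not pass (0.17, SE 0.08, edgeR adjusted p = 0.223).

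Among the genes of the ISG15 system, Isg15, a ubiquitin-like protein, its protease Usp18 and the ligase Herc6 had log2 fold changes of −0.19, −0.33 and 0.07 with SEs of 0.59, 0.72 and 0.14. Trim30a, a ubiquitin ligase that restrains inflammatory signalling, stood at 109, 93.6, 100 and 99.7 CPM in controls 1 to 4 and at 114, 106, 102 and 100 CPM in knockouts 1 to 4. Its libraries numbered 4 stood at 0.988 and 0.934 times the mean of the rest of their group.

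Levels of different members were compared per kilobase of exon, on which scale a membrane protein gene came first. Bst2, or tetherin, which holds budding virus at the cell surface, averaged 113 CPM per kilobase over all 8 libraries. Ifi27l2a and Ifi27, small membrane proteins encoded side by side on chromosome 12, averaged 67.3 and 43.3 CPM per kilobase, Samhd1 36.0, Oas1a 25.5 and Trim30a 25.1 CPM per kilobase, against 0.851 for Mx2 at the low end. Below the first 2 genes this order rested on number 4. In numbers 1 to 3 Bst2 averaged 63.1, Ifi27l2a 37.0, Samhd1 32.5, Trim30a 25.3, Ifi27 25.2 and Oas1a 19.1 CPM per kilobase, the last below Rtp4 and Parp14 at 21.4 each. Bst2 stood at 51.2, 52.1, 76.2 and 257 CPM in controls 1 to 4 and at 48.7, 45.7, 68.0 and 219 CPM in knockouts 1 to 4. Ifi27 stood at 39.7, 35.4, 41.2 and 155 CPM in controls 1 to 4 and at 34.2, 34.2, 36.7 and 132 CPM in knockouts 1 to 4. For both the gap between number 4 and the rest was far larger than any gap between genotypes.

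Ifi27l2a passed in numbers 1 to 3 whereas its neighbour Ifi27 did not (edgeR adjusted p = 0.28), a difference between the genes that was not tested. Ifi27l2a stood at 11.6, 12.3, 14.1 and 84.0 CPM in controls 1 to 4 and at 19.0, 22.2, 23.7 and 62.3 CPM in knockouts 1 to 4. Within numbers 1 to 3 it rose by 0.78 (SE 0.12) on the log2 scale (edgeR adjusted p = 0.00332). Over all 8 libraries the value was 0.06 (SE 0.75, edgeR adjusted p = 1) without the block. With the block it was 0.45 (SE 0.24, edgeR adjusted p = 0.363). Rtp4, a chaperone of receptors, stood at 46.9, 45.6, 45.4 and 64.6 CPM in controls 1 to 4 and at 45.0, 47.8, 43.2 and 39.7 CPM in knockouts 1 to 4. Its genotype difference of −0.20 (SE 0.14) rested on number 4, and in numbers 1 to 3 it was −0.02 (SE 0.07). Ifi44 stood at 3.86, 5.51, 3.44 and 18.6 CPM in controls 1 to 4 and at 3.66, 4.40, 3.56 and 10.3 CPM in knockouts 1 to 4. Its knockout value was lower in 3 of 4 pairs, with a log2 fold change of −0.52 and an SE of 0.64. Xaf1, a protein linked to cell death, and Phf11d had log2 fold changes of −0.12 and −0.06 with SEs of 0.36 and 0.19.

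The libraries numbered 4 held more of these transcripts in total. The 41 members summed to 2997 CPM in control 4 and 2609 CPM in knockout 4, against 1729 to 1819 CPM in the other controls and 1816 to 1847 CPM in the other knockouts. In control 4, 15 of 41 members (36.6%) stood at least 2 times above the mean of controls 1 to 3, against 12.7% of all genes, and 0 stood at least 2 times below it, against 18.7%. In knockout 4, 8 of 41 (19.5%) stood at least 2 times above, against 10.5% of all genes, and 2 at least 2 times below (Ifit2 and Ifit3b, 4.88%), against 17.0%. The ratio of number 4 to the rest was smaller among knockouts than among controls for 37 of 41 members (90.2%), against 49.0% of all genes. Each side of this comparison rests on 1 library, so it has no replicate check. The osteoclast markers moved with number 4 as given above, and their part in these levels was not tested.

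**Figure D3:**
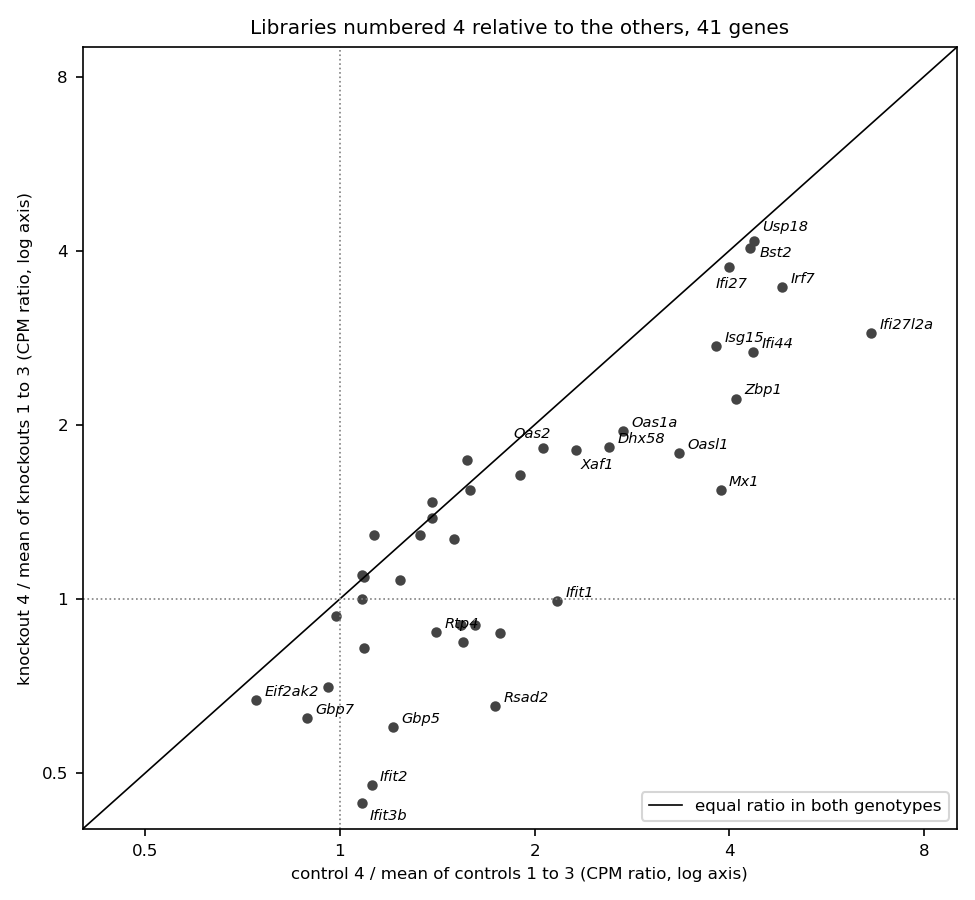
Each point is 1 of the 41 genes, with the CPM ratio of control 4 to the mean of controls 1 to 3 on the x axis and that of knockout 4 to the mean of knockouts 1 to 3 on the y axis, both on log axes. Of the 41 points, 37 lie below the line of equal ratios, Usp18 and Bst2 stand above 4 on both axes, and Ifit2 and Ifit3b stand below 0.5 for the knockout.

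The summed cell type markers overlapped between genotypes in numbers 1 to 3, but single markers did not all do so. The macrophage markers summed to 33095, 24632 and 32653 CPM in controls 1 to 3 and to 27892, 24826 and 27256 CPM in the matching knockouts. In those controls the osteoclast markers summed to 33.4, 67.8 and 34.1 CPM, against 60.5, 38.8 and 42.6 CPM in those knockouts. The osteoblast markers summed to 5845, 13689 and 7811 CPM in those controls and to 12502, 8235 and 8275 CPM in those knockouts. Lyz2 made up most of the macrophage sum. Cd68 (589 to 750 CPM in controls, 834 to 843 CPM in knockouts) and Mrc1 (1058 to 1218 CPM, 1431 to 1588 CPM) were higher in knockouts 1 to 3 without overlap, and C1qa (1308 to 1651 CPM, 1236 to 1281 CPM) was lower. These and the single markers that follow are to be read against all genes tested. Of those, 18.2% were higher and 16.5% lower without overlap in numbers 1 to 3, so such a marker is not unusual. Of the osteoclast markers, at levels up to 2.54 CPM, Ocstamp was higher and Dcstamp lower without overlap, and of the plasmacytoid list Tcf4 was higher (128 to 149 CPM, 165 to 177 CPM). The 7 osteoblast markers overlapped, although single libraries stood out. Ibsp, Bglap and Alpl were at 1082, 42.3 and 83.6 CPM in knockout 1. Elsewhere in numbers 1 to 3 they had at most 49.2, 0.582 and 30.6 CPM. Col1a1, Col1a2, Runx2 and Sp7 were highest in control 2. Cd79a of the B cell list was higher at 0.062 to 0.163 CPM, against 0 to 0.0562 CPM in controls 1 to 3. It had at most 3 counts in a library, too few to order the groups. The part of these cell types in the Gbp and Ifit differences was not tested. With 3 against 3 libraries an exact permutation test cannot go below p = 0.1, so the calls in numbers 1 to 3 rest on the fit across all genes.

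Other genes of the pathway were counted from lists of names, to be read against the 7.78% higher and 6.29% lower of all genes in numbers 1 to 3. For calls with the block the shares of all genes were 12.3% higher and 11.9% lower in numbers 1 to 3. They were 1.31% and 1.18% with all 8 libraries and the block. None of 12 interferon genes had over 1 count in a library, so the ligands were not detectable at this depth. Of 8 receptor and kinase genes tested, 0 passed with all 8 libraries, and in numbers 1 to 3 there were 0 higher and 2 lower. These were Ifnar1, a chain of the type I interferon receptor (−0.37, SE 0.09, edgeR adjusted p = 0.0295), and Ifngr2, a chain of the interferon gamma receptor (−0.34, SE 0.06, adjusted p = 0.00675). Ifnar1 stood at 373, 291, 319 and 246 CPM in controls 1 to 4 and at 260, 247, 254 and 272 CPM in knockouts 1 to 4, so here too pair 4 went the other way. Of 8 other transcription factors, 0 were higher and 1 was lower in numbers 1 to 3, Rela of the NF-kappaB complex (−0.24, SE 0.07, adjusted p = 0.0481). Irf2, a repressor of interferon-induced genes, passed there with the block (−0.22, SE 0.05, adjusted p = 0.0116).

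Of 12 other nucleic acid sensors and adaptors, 7 were higher and 1 lower in numbers 1 to 3. With all 8 libraries and the block 1 of the 12 passed as higher, against 1.31% of all genes. It was Tlr4, the receptor for bacterial lipopolysaccharide (0.33, SE 0.06, edgeR adjusted p = 0.0458). Named after their values were seen, Sting1, the adaptor downstream of the DNA sensor cGAS, stood at 34.2, 30.5, 34.9 and 99.5 CPM in controls 1 to 4 and at 44.7, 46.2, 47.0 and 92.0 CPM in knockouts 1 to 4. Cgas itself was at 11.1, 10.8, 12.3 and 7.55 CPM in controls 1 to 4 and at 15.6, 15.7, 14.2 and 7.65 CPM in knockouts 1 to 4. Within numbers 1 to 3 Sting1 rose by 0.47 (SE 0.07, edgeR adjusted p = 0.00397) and Cgas by 0.41 (SE 0.11, adjusted p = 0.0361) on the log2 scale. Log2 fold changes of the 7 higher genes ran from 0.20 to 0.50 there, so Sting1 and Cgas are examples and do not stand apart. Of 8 negative regulators tested, 1 was higher and 1 lower in numbers 1 to 3. The higher one was Rnaseh2b, a subunit of an enzyme that removes RNA from DNA (0.64, SE 0.15, edgeR adjusted p = 0.0215). The lower one was Socs3, a suppressor of cytokine signalling (−0.47, SE 0.11, adjusted p = 0.0257). With the block in numbers 1 to 3 there were 2 higher and 2 lower, against 12.3% and 11.9% of all genes. Ptpn6, a phosphatase, was the further higher gene. Irf2bp1, a corepressor of IRF2, was the further lower one (−0.28, SE 0.08, adjusted p = 0.0306), after an adjusted p of 0.058 without the block.

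Of 52 other interferon-induced genes tested, 0 passed with all 8 libraries and no block, and in numbers 1 to 3 there were 8 higher and 2 lower. With all 8 libraries and the block 1 of the 52 passed as higher, against 1.31% of all genes. It was Slfn9 of the Schlafen family (0.79, SE 0.12, edgeR adjusted p = 0.0412). Slfn9 stood at 12.3, 17.2, 13.1 and 8.53 CPM in controls 1 to 4 and at 25.6, 29.8, 23.8 and 11.1 CPM in knockouts 1 to 4, higher in 4 of 4 pairs. The further guanylate-binding proteins Gbp8 and Gbp9, encoded on another chromosome than the block above and named after their values were seen, were also higher in numbers 1 to 3. Gbp8 was at 2.59, 1.41, 3.09 and 1.75 CPM in controls 1 to 4 and at 8.81, 8.97, 7.45 and 1.02 CPM in knockouts 1 to 4 (1.83 in numbers 1 to 3, SE 0.26, edgeR adjusted p = 0.00243). Gbp9 was at 12.3, 12.4, 9.90 and 14.8 CPM in controls 1 to 4 and at 18.2, 19.0, 17.9 and 8.08 CPM in knockouts 1 to 4 (0.67, SE 0.12, adjusted p = 0.00631). Both again had the knockout above the control in numbers 1 to 3 and below it in number 4. The median log2 fold change of this list was −0.02 over all libraries and 0.11 in numbers 1 to 3.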

How the data were processed

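Raw read counts for each gene symbol, not normalized, were deposited by the authors. The tools named by the submitters' processing notes are STAR 2.7.11b and featureCounts 2, with the build GRCm38 (mm10), while the annotation, strand setting and treatment of reads with several alignments are not given in the sources used here. Columns were tied to samples by the library names in the labels, and groups and numbers came from the titles. Genes were filtered with filterByExpr, libraries scaled with TMM factors, and genotype tested with the quasi-likelihood F test of edgeR 4.0.16 in R 4.3.3, adjusted over all genes with a threshold of 0.05. The same fit was made with the number as a block and on numbers 1 to 3 alone. From these counts, CPM was calculated on the TMM-scaled totals, with a prior count of 2 for log2 CPM. DESeq2 1.42.0 and limma 3.58.1 served as alternatives. Members, lists and the rule for genes given in full were chosen with earlier results of these data known. That rule takes the 14 members with the smallest unadjusted p and the 6 with the highest CPM per exon length, lengths and positions coming from GENCODE M21, which matched 41 of 41 members. Gbp2, Mx1, Oasl1, Zbp1 and Ifit1 were added after their values were seen. A result on 1 gene of the pathway lists is not reported here.

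Same-numbered libraries were checked for pairing. After removal of group means the correlation of their log2 CPM across genes was 0.46 to 0.83 with all libraries, where unlike numbers among 1 to 3 gave 0.416 to 0.572, so that this range shows little beyond number 4 standing apart. It was 0.161 to 0.376 among numbers 1 to 3 alone, where unlike numbers gave −0.255 to −0.0234. Removing the mean of so few libraries pushes unlike numbers below 0 once same numbers lie above it. The unlike values are therefore no independent contrast. All same-number values exceeded 0.1, and the number was therefore also fitted as a block. That pairing rests on these correlations, since no label says what the number marks. Fold changes over all 8 libraries come from the fit without the block unless the block is named. The fits were tested on simulated counts before use. Those counts held no difference between the numbers. The test therefore does not show how the fits behave when number 4 stands apart.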

Additional observations from a re-analysis of the deposited data

Results flagged for a closer look

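In 18 of 40 groups of 4 values, covering the 20 members given in full by the rule, 1 library lay so far from the other 3 that its gap, as a share of the group's whole range, exceeded Dixon's 95% critical value. Chance flags about 1 in 20 groups when groups are independent, but these 40 share the same 8 libraries. The 6 members taken for their level were ranked over all 8 libraries, and number 4 raised some of them into that rank. The share of all genes flagged in this way was not computed, so the count is a description of these members. Each of the 18 was a library numbered 4. Of these, 17 were high and 1 was low, the low one being Ifit2 in knockout 4 (11.1 CPM against 22.3 to 23.9 CPM, gap 0.879).

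In both genotypes number 4 was high for 7 members. The gaps in controls and knockouts were 0.964 and 0.906 for Irf7, 0.863 and 0.875 for Ifi44, 0.879 and 0.871 for Bst2, 0.966 and 0.891 for Ifi27l2a, 0.952 and 0.974 for Ifi27, 0.922 and 0.92 for Samhd1, and 0.937 and 0.943 for Oas1a. In controls alone number 4 was high for Cmpk2 (9.72 CPM against 6.23 to 6.30 CPM, gap 0.981), Rtp4 (64.6 CPM against 45.4 to 46.9 CPM, gap 0.921) and Oasl2 (128 CPM against 66.9 to 68.7 CPM, gap 0.969). What sets number 4 apart was not tested.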

How the results depend on the processing

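Counts of calls depended on the libraries and the model. Over all genes, 0 higher and 0 lower became 123 and 48 with DESeq2, 168 and 151 with the replicate block, 1005 and 812 without replicate 4 of both groups, and 1593 and 1539 there with the block. Leaving out 1 library gave 0 to 25 higher and 0 to 13 lower, with 25 and 13 without control 4 and 17 and 7 without knockout 4. Among the 41 members, 0 higher and 0 lower became 1 and 0 with DESeq2, 0 and 1 with the block, 9 and 1 without replicate 4 of both groups, and 12 and 2 there with the block, and they stayed at 0 and 0 with any 1 library left out. With the block and number 1, 2 or 3 left out of both groups, an alternative chosen after seeing the data, 0 genes were called. RLE and upper-quartile factors, limma-voom and other filters on low counts gave 0 calls each. The members' median ran from −0.09 to 0.28 with 1 library left out.

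Of 400 values of the 20 members given in full under 20 alternatives, 362 kept their direction and their side of the threshold. Another 22 came past it and 16, from 7 members, changed sign. The 362 include Irf7 and Ifi27l2a under DESeq2, which gave them no adjusted p, so they count there by direction alone. Leaving out 1 library moved the log2 fold change of Irf7 between −1.47 and 0.18, Ifi44 between −1.01 and 0.35, Bst2 between −1.01 and 0.67, Ifi27l2a between −0.49 and 1.32, Ifi27 between −0.95 and 0.60, Samhd1 between −0.12 and 0.17, and Oas1a between −0.50 and 0.31. Oas1a was at 0.02 without replicate 4 of both groups, with and without the block. Each of these 7 was high in number 4, so their unpaired values rest on it. The lowest counts were 31 to 51 in a library for Ifit3b, Mx2, Oasl1 and Isg20, which limits their precision.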

Other observations

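The chemokine Cxcl10, a transcript that rises steeply under interferon gamma, had at most 60 counts in a library. Its controls ran from 0.582 to 4.20 CPM and its knockouts from 0.993 to 4.08 CPM. Ddx60, an RNA helicase and named after its values were seen, was at 21.7, 20.9, 15.5 and 43.7 CPM in controls 1 to 4 and at 30.8, 27.0, 26.7 and 42.7 CPM in knockouts 1 to 4, and it passed as higher in numbers 1 to 3 (log2 fold change 0.54, SE 0.13, edgeR adjusted p = 0.0301).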
